A study of Homo sapiens with 19 samples.

Results

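The N-short knockdown of RBFOX2 was compared with control in 7 RNA-seq libraries, 3 of control and 4 in which the N-short isoform was knocked down (N-short KD), out of 19 libraries in the whole series. They were taken by their titles, and 3 library sets hold 1 library of each kind. All 7 came from HUES66, a human embryonic stem cell line grown in StemFlex medium on Geltrex, and all had received doxycycline at 1 µg/ml. The N-short KD cells carried the genotype label of an RBFOX2 isoform knockdown, and the controls were labelled wild type. N-short KD was sampled at 24 hr (replicates 1 and 2), 48 hr and 96 hr. Control was sampled at 24 hr (replicate 2), 48 hr and 96 hr, so the first 24 hr knockdown library has no control of its own set. A library titled wild-type HUES66 shares the name prefix of that set and the word by which the control libraries are named, but carries no doxycycline label. It was used as the control of that set in an alternative only. Cas13d, which cuts RNA at sites matched by a guide RNA, is named in the title of the series. The labels used here give neither the guides nor the promoter of the enzyme, nor whether a line is 1 clone. Nothing in the labels says that replicates came from separate cultures, so p-values measure the spread between these libraries, which may be technical.

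RBFOX2 is an RNA-binding protein that recognises a short GCAUG-like motif and changes the inclusion of nearby alternative exons. Binding downstream of an exon generally favours its inclusion, and binding upstream generally favours its skipping. The gene is transcribed from several promoters, so its mRNAs begin with different first exons and encode different N-terminal ends. In pluripotent cells RBFOX2 is the main expressed member of its family. RBFOX1 and RBFOX3 are its relatives, best known from neurons.

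The labels do not say which first exon the names N-short and N-long stand for. In GENCODE release 29, 2 kinds of coding first exon join the same RBFOX2 exon on the minus strand of chromosome 22 (hg38, 35809780 to 35810004). In the shorter kind, 27 coding bases (35840192 to 35840218) precede the shared exon. In the longer kind, a 51-base exon (35938847 to 35938897) comes just before the shared exon, and 93 or 237 coding bases precede it in all. Below, the intron from 35810005 to 35840191 is called the N-short intron and that from 35810005 to 35938846 the N-long intron, on the strength of those coding lengths alone. The joins that the junction reads tell apart are shown 5′ to 3′ from the GENCODE transcripts, with the bases before the junction in capitals and the first 30 bases of the shared exon in lower case.
RBFOX2 N-short join: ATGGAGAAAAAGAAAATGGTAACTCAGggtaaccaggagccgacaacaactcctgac
RBFOX2 N-long join: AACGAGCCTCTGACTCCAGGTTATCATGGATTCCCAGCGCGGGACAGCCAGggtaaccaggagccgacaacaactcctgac

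The exons on which the comparison of splicing turned are shown next, because they are among the cassette exons with the smallest p when N-short KD was set against N-long KD. Each exon is in capitals between 15 bases of the neighbouring coding exons, all from GENCODE transcripts on hg38. GOLIM4 (chromosome 3, 168040786 to 168040869, minus strand) encodes a Golgi membrane protein. CLSTN1 (chromosome 1, 9737498 to 9737554, minus strand) encodes calsyntenin, a membrane protein that links cargo to kinesin. ECT2 (chromosome 3, 172755483 to 172755575, plus strand) encodes a protein needed for cytokinesis. ENAH (chromosome 1, 225504991 to 225505053, minus strand) encodes an actin regulator. DIAPH1 (chromosome 5, 141588224 to 141588250, minus strand) encodes an actin-nucleating formin. EPB41 (chromosome 1, 29060422 to 29060484, plus strand) encodes protein 4.1, which ties spectrin to the membrane.
GOLIM4 exon: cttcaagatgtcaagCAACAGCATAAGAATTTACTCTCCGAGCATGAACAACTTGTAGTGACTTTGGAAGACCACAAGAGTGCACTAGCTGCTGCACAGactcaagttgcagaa
CLSTN1 exon: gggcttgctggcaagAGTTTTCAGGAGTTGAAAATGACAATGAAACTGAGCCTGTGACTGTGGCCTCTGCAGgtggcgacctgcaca
ECT2 exon: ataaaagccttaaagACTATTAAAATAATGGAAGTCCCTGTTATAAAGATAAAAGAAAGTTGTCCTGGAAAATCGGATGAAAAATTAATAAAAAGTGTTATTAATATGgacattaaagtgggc
ENAH exon: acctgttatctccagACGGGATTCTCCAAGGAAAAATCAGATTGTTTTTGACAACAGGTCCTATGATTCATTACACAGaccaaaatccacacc
DIAPH1 exon: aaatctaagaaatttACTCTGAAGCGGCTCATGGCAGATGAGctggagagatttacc
EPB41 exon: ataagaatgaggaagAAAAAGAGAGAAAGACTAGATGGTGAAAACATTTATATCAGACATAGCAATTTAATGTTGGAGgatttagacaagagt

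The 7 libraries held 9622841 to 13891603 reads across splice junctions, of which 97.8% to 98.3% lay on annotated junctions. Pluripotency markers marked the cells as labelled. The 21 tested of 22 listed markers summed to 4487 to 5954 CPM (junction reads scaled for library size) in the controls and 4338 to 5607 in N-short KD. POU5F1, the core pluripotency factor, was between 926 and 1243 CPM in every library, and NANOG between 28.98 and 37.6. SOX2, which has no intron, was at 0 as junction reads must be. Of 28 listed markers of germ layers and other cell types, 7 were at 0 in all 7 libraries (SOX17, HAND1, CDX2, SOX1, LUM, DCN and TTR) and 11 were below the count filter. SOX1 has no intron either, so its 0 says nothing of its RNA. The other 10 summed to 506 to 698 CPM in the controls and 472 to 675 in N-short KD. These sums overlapped between groups. Most of each sum came from COL1A2 (193 to 323 CPM over the 7 libraries), COL1A1 (174 to 226) and KDR (38.0 to 99.8). All 3 stood above NANOG in every library. Whether the cultures held a second cell type was not tested. In bulk RNA, fewer cells of a type and less RNA per cell cannot be told apart.

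Total RBFOX2 RNA was close to the control level in N-short KD. RBFOX2 (ENSG00000100320.22, chromosome 22, 35738736 to 36028425) had 134, 126 and 128 CPM in the controls at 24, 48 and 96 hr. In N-short KD it had 116 and 124 CPM at 24 hr, 124 at 48 hr and 114 at 96 hr. All 4 knockdown libraries lay below all 3 controls. The share of all genes without overlap was not counted, so this separation is description only. Within the 24, 48 and 96 hr sets, N-short KD had 92.3% (exact 95% interval 85.1% to 99.9%), 98.4% (91.6% to 105.7%) and 88.8% (82.3% to 95.7%) of the control reads. These intervals, like all those given for single libraries below, cover counting error only. The log2 fold change fitted with edgeR's quasi-likelihood test was -0.06 (SE 0.0693, approximate 95% interval -0.19 to 0.08, unadjusted p = 0.422, adjusted p = 0.999). Its sign turned without the 24 hr control (0.0013) or when N-short KD at 96 hr was left out (0.0025).

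Reads across the N-short intron were lower in every N-short KD library than in every control. They numbered 21, 26 and 28 in the controls at 24, 48 and 96 hr, or 2.10, 2.20 and 2.27 CPM. In N-short KD they numbered 6 and 10 at 24 hr (0.460 and 1.10 CPM), 19 at 48 hr (1.49 CPM) and 5 at 96 hr (0.465 CPM). The 48 hr knockdown library was the highest of the 4 and the 24 hr replicate 1 and 96 hr libraries the lowest.

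Within sets, the N-short intron in N-short KD stood at 52.6% of control at 24 hr (exact interval 22.1% to 116.7%), 67.8% at 48 hr (35.4% to 127.3%) and 20.5% at 96 hr (6.18% to 53.8%). The interval at 96 hr lies below 100%, and those at 24 and 48 hr do not. The fitted log2 fold change was -1.29 (SE 0.314, 95% interval -1.90 to -0.67), with an unadjusted p of 7.27e-05 in edgeR's quasi-likelihood test. Adjusted over all 120834 junctions tested, p was 0.439 and the change was not called. It was called when the 48 hr library of N-short KD was left out (-1.86, adjusted p = 0.0148), with wild-type HUES66 as the control of 24 hr replicate 1 (-1.36, adjusted p = 0.0305) and without the filter on low counts (-1.297, adjusted p = 0.0380).

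The N-long intron was not lower in N-short KD. It had 44, 69 and 53 reads in the controls (4.40, 5.84 and 4.29 CPM) and 78, 57, 81 and 58 in the N-short KD libraries (5.98, 6.29, 6.36 and 5.39 CPM). The ranges of the groups overlapped. The fitted log2 fold change was 0.38 (SE 0.157, 95% interval 0.07 to 0.69, unadjusted p = 0.0173), and the adjusted p in edgeR's quasi-likelihood test was 0.9999. The far upstream first exon, which feeds the 51-base exon, had 19, 16 and 19 reads in the controls and 27, 15, 21 and 19 in N-short KD, a log2 fold change of 0.17 (SE 0.285).

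The share of the N-short intron among reads of both introns puts the members on 1 scale that does not depend on library size. It was 32.3% (Wilson 95% interval 22.2% to 44.4%), 27.4% (19.4% to 37.1%) and 34.6% (25.1% to 45.4%) in the controls at 24, 48 and 96 hr. In N-short KD it was 7.14% (3.31% to 14.7%) and 14.9% (8.31% to 25.3%) at 24 hr, 19.0% (12.5% to 27.8%) at 48 hr and 7.94% (3.44% to 17.3%) at 96 hr. The groups did not overlap. The means were 31.4% ± 3.68 (SD, n = 3) and 12.3% ± 5.70 (SD, n = 4), a difference of -19.2 percentage points. An exact two-sided permutation test gave p = 0.0571, which is the smallest that 4 against 3 libraries allow. The test shuffled libraries across times and sets, so it ignored the pairing within sets. Wild-type HUES66 without a doxycycline label had 28.1% (22.6% to 34.3%).

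The N-short KD shares also lay below those of every library of the other knockdowns. The share averaged 57.9% ± 12.9 (SD, n = 4) in N-long knockdown (N-long KD), where the lowest was 44.2%, with an exact permutation p of 0.0286 against N-short KD. In total RBFOX2 knockdown (total KD) it averaged 27.9% ± 7.86 (SD, n = 3), where the lowest was 23.1%, with an exact permutation p of 0.0571. The 3 comparisons of N-short KD share its 4 libraries, and their permutation tests all ignored the pairing within sets. Each p is the smallest its unpaired design allows, and all 3 gave 0.0571 after Benjamini-Hochberg adjustment. Across all junctions, edgeR's quasi-likelihood test called the N-short intron higher in N-long KD than in N-short KD (log2 fold change 1.45, SE 0.277, adjusted p = 0.00336). It called the N-long intron lower there (-1.87, SE 0.175, adjusted p = 1.23e-14). In total KD the N-short intron had 6, 13 and 17 reads (0.436, 0.930 and 1.66 CPM at 24, 48 and 96 hr), which overlaps N-short KD. Its log2 fold change of total KD over N-short KD was 0.12 (SE 0.368, edgeR's quasi-likelihood test, adjusted p = 0.971), so the intron itself was not called between these 2 knockdowns. The N-long intron was called lower in total KD than in N-short KD (-1.302, SE 0.177, edgeR's quasi-likelihood test, adjusted p = 1.97e-08).

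**Figure D1:**
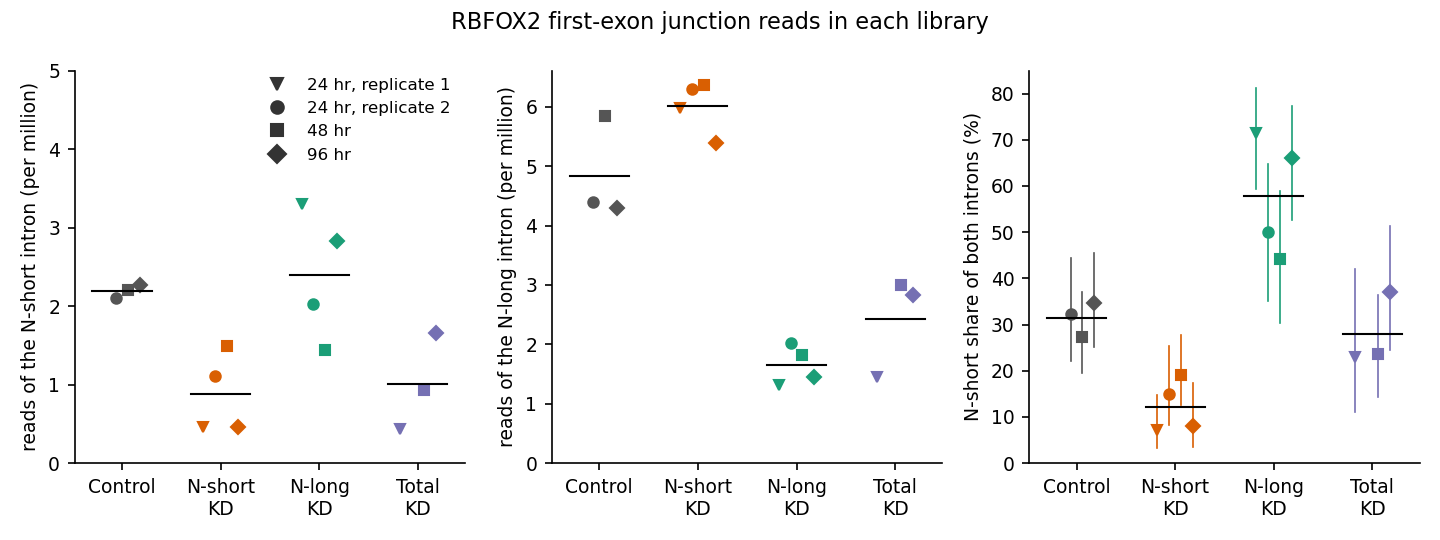
Reads of the N-short intron and of the N-long intron (CPM of junction reads, left and middle) and the N-short share of both (percent, right) in each library of control and of N-short, N-long and total KD. Marker shapes give the library set, black bars the group mean and thin lines the Wilson 95% interval; the 4 N-short KD shares lie between 7.14% and 19.0%, below the 27.4% to 34.6% of the controls.

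The rest of the RBFOX2 transcript was near its control level. Of 25 RBFOX2 introns listed, 16 passed the count filter, and edgeR's quasi-likelihood test called 0 of them, with 2 at an unadjusted p under 0.05 (the N-short and N-long introns). The 13 others that lie downstream of the shared exon had log2 fold changes from -0.22 to 0.21. Downstream of that exon RBFOX2 has a pair of acceptor sites 3 bases apart. The site nearer to the shared exon took 33.9%, 37.0% and 29.9% of the reads of both in the controls. In N-short KD it took 35.1%, 31.7%, 41.9% and 36.6%, which overlaps the controls. RBFOX1 had 11 to 21 reads per control library and 5 to 18 per N-short KD library (log2 fold change -0.04, SE 0.38). RBFOX3 had 208 to 251 and 198 to 295 reads (log2 fold change -0.04, SE 0.10). Neither was called, with an adjusted p of 0.999 for both in edgeR's quasi-likelihood test.

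**Figure D2:**
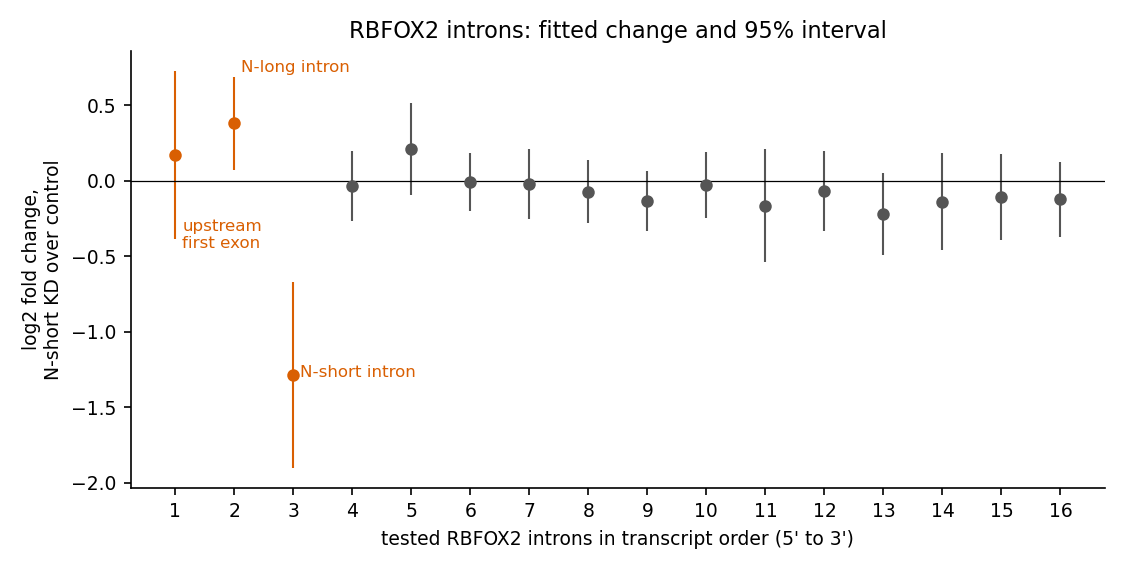
Fitted log2 fold change of N-short KD over control (vertical axis) with its approximate 95% interval for the 16 tested RBFOX2 introns in transcript order (horizontal axis). The N-short intron stands at -1.29, and the 13 introns downstream of the shared exon lie between -0.22 and 0.21.

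Few genes were called between N-short KD and control. Of 13393 genes tested, edgeR's quasi-likelihood test called 1 (0.00747%), with 543 at an unadjusted p under 0.05, and DESeq2 called 0. The median log2 fold change of all genes was -0.0013 and the median absolute change 0.0614. The called gene was CA3 (ENSG00000164879.6), a carbonic anhydrase abundant in muscle and fat. It had 1.70, 11.005 and 5.34 CPM in the controls at 24, 48 and 96 hr. In N-short KD it had 0.690 and 1.99 CPM at 24 hr, 1.81 at 48 hr and 0.186 at 96 hr. The 48 and 96 hr controls were high, and the 24 hr control lay within the range of the knockdown libraries, so the groups overlapped.

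CA3 changed by -2.14 on the log2 scale (SE 0.381, edgeR's quasi-likelihood test, adjusted p = 0.0391), lower in 2 of 3 sets. N-short KD had 116.9% of the control reads at 24 hr (exact interval 56.9% to 241.5%), 16.4% at 48 hr (10.04% to 25.7%) and 3.48% at 96 hr (0.413% to 13.1%). The adjusted p of CA3 ranged from 7.19e-14 to 0.9999 over the alternatives. Without the 48 hr control the fold change was -1.71 (adjusted p = 0.9996), without the 96 hr control -1.77 (0.994), leaving out N-short KD at 48 hr -1.91 (0.9998) and at 96 hr -1.77 (0.374), all by edgeR's quasi-likelihood test. CA3 did not separate N-short KD from N-long KD (0.09) or total KD (-0.09) on the log2 scale.

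TFRC, the transferrin receptor through which cells take up iron, had the next smallest p. It had 202, 278 and 202 CPM in the controls and 216, 160, 230 and 179 in the N-short KD libraries. N-short KD was lower in 3 of 3 sets, at 79.1% (exact interval 73.8% to 84.6%), 82.9% (78.9% to 87.2%) and 88.5% (83.3% to 93.9%) of control. Pooled over time the groups overlapped. The fitted log2 fold change was -0.23 (SE 0.0434) with an adjusted p of 0.0565 in edgeR's quasi-likelihood test, outside the threshold. TFRC passed under 5 alternatives, among them the fit of these 7 libraries alone (-0.26, adjusted p = 0.00258), and its adjusted p ranged from 9.30e-05 to 0.9997 over all of them.

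**Figure D3:**
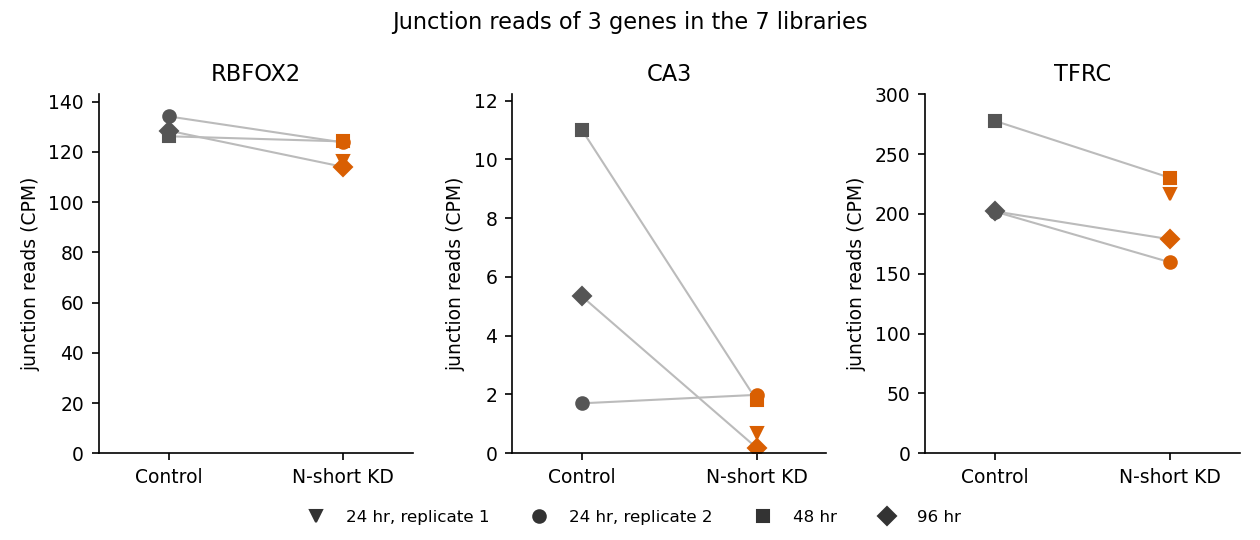
CPM of RBFOX2, CA3 and TFRC in each library of control and N-short KD, with lines joining libraries of the same set and marker shapes giving the set. RBFOX2 lies between 114 and 134 CPM, CA3 is above 5 CPM in the 48 and 96 hr controls alone, and TFRC is lower in N-short KD in each of the 3 sets.

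The other genes ranked by p, among those with the same direction in all 3 sets, did not pass the test. Overlap of groups is given as description only, because the genes were picked by p and direction in these data. The share of all genes without overlap was not counted. UNC13A, a factor that primes synaptic vesicles, had 144, 125 and 190 CPM in the controls and 158, 135, 108 and 166 in N-short KD (log2 fold change -0.17, SE 0.0391). GUF1, a mitochondrial translation GTPase, had 99.95, 96.0 and 100.6 CPM and 82.8, 85.4, 86.7 and 88.1 CPM, with no overlap (-0.17, SE 0.0470). ZNF143, a zinc-finger transcription activator, had 62.8, 58.1 and 63.3 CPM and 67.0, 73.4, 72.7 and 66.2 CPM, with no overlap (0.22, SE 0.0559). RBFA, a mitochondrial ribosome-binding factor, had 17.7, 14.2 and 18.7 CPM and 25.8, 21.0, 20.4 and 23.7 CPM, with no overlap (0.38, SE 0.102). MTA3, a subunit of the NuRD chromatin complex, had a log2 fold change of -0.13 (SE 0.0344) and MAN1A1, a Golgi mannosidase, one of -0.48 (SE 0.129). AC105942.1 (1.29, SE 0.315), ZBTB38 (0.60, SE 0.17) and C15orf41 (0.32, SE 0.0899) completed the ranking. The smallest adjusted p among these 9 genes, that of UNC13A, was 0.525 in edgeR's quasi-likelihood test.

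Gene lists described the state of the cells, and none had a called member. With 1 of all 13393 genes called (0.00747%), 0 calls are what that share gives for any list. They do not set a list apart. Of 21 tested pluripotency genes, 6 were above and 15 below 0, with a median log2 fold change of -0.0485 beside -0.0013 for all genes. Unadjusted p was under 0.05 for 3 of them. DNMT3B, a de novo DNA methyltransferase, had 1286, 1244 and 2058 CPM in the controls and 1677, 1256, 1120 and 1839 in N-short KD (log2 fold change -0.09). TERF1, a telomere-binding protein, had a log2 fold change of -0.08 and PRDM14, a transcription regulator of pluripotency, one of -0.18. The 10 tested markers of other cell types had a median of -0.0343.

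The 46 splicing regulators had a median log2 fold change of -0.0048, with 20 above and 26 below 0. Of these 0 were called, beside 1 of all 13393 genes. HNRNPA1, HNRNPA2B1 and HNRNPK, abundant RNA-binding repressors of splicing, had log2 fold changes of -0.01, -0.0002 and 0.01. MBNL2, which shares many target exons with RBFOX proteins, ranged from 0.728 to 1.10 CPM among controls and from 0.767 to 2.32 CPM among N-short KD libraries, a log2 fold change of 0.76 (SE 0.349, unadjusted p = 0.0372). Of the 46 genes listed for having RBFOX-responsive exons, 22 were above and 24 below 0 in total junction reads, with a median of -0.0036.

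Genes that respond to double-stranded RNA and interferon had a median log2 fold change of 0.0137 over 14 tested members. Of these 0 were called, beside 1 of all 13393 genes. IFIT1, IFIT2, IFIT3, IFIT5, OAS1, OAS2, IRF9 and TLR3, 8 of the list, were below the count filter. ADAR, which edits double-stranded RNA, had 306, 287 and 337 CPM in the controls and 334, 312, 291 and 334 in N-short KD. EIF2AK2, the kinase PKR, had 150, 150 and 142 CPM and 121, 161, 149 and 137 CPM. The integrated stress and unfolded protein response had 0 of 20 members called (median -0.0274), with the chaperone HSPA5 at -0.01 and the serine synthesis enzyme PSAT1 at -0.06. PSAT1 was called higher in total KD than in N-short KD (0.75, edgeR's quasi-likelihood test, adjusted p = 5.5e-15). The p53 response had 0 of 16 called (median -0.0472), with MDM2, the ligase that degrades p53, at -0.06.

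Actin, membrane skeleton and adhesion genes, among them hosts of RBFOX-responsive exons, had 0 of 27 called, 13 above and 14 below 0, and a median of -0.0048. FLNA, ACTB, ACTG1 and MYH9 had log2 fold changes from -0.03 to 0.01. Vinculin (VCL), which links adhesions to actin, had a log2 fold change of -0.08 (SE 0.0349). The 15 very abundant transcripts, listed as a check on scaling, ranged from -0.0438 to 0.0627 with a median of -0.0061.

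Cassette exon inclusion was measured as the percent of inclusion among inclusion and skipping junction reads. Of 6537 exons tested in N-short KD against control, edgeR's quasi-likelihood test called 1 (0.0153%), with 275 at an unadjusted p under 0.05, and limma called 0. The called exon lay in SEPT7 (chromosome 7, 35831492 to 35832034), which encodes a septin of the cell cortex. Its inclusion was 0, 0 and 65.1% in the controls at 24, 48 and 96 hr, and 88.4% and 0 in the N-short KD libraries of 24 hr replicate 1 and 96 hr. The other 2 N-short KD libraries had no read for or against it. In the libraries at 0, the upstream inclusion junction has no row in the deposited list. The 65.1% and 88.4% came almost wholly from that junction (57 and 75 reads), with little or nothing at the downstream one. Because inclusion is the mean of both junctions, these values do not show the exon joined on both sides. The groups overlapped, the value rests on the 96 hr set alone, and the fitted log2 odds of -5.37 turned to 6.50 without the 96 hr control.

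Every tested cassette exon of 41 genes on the list of RBFOX-responsive genes was taken, 111 in all. The list names genes, so these exons are not all known to respond to RBFOX proteins. It was chosen with earlier results of these data known, so its share of the calls below is description only. Between N-short KD and control 0 of them were called, 60 had lower odds of inclusion, and the median difference was -0.153 percentage points beside 0.0053 for all exons. Unadjusted p was under 0.05 for 5 of the 111. Against N-long KD, 28 of all 6537 exons were called (0.428%), 25 of them lower in N-long KD. The list gave 12 of these, all 12 lower in N-long KD. Against total KD, 92 exons were called (1.41%), 62 of them lower in total KD, and 20 of the list's 111 were called, all lower in total KD. Of the 28 exons called between the isoform knockdowns, 0 were called in N-short KD against control and 5 had an unadjusted p under 0.05 there, beside 275 of all 6537 exons. These contrasts share the N-short KD libraries. Leaving out the 48 hr library of N-short KD gave 12 exons against N-long KD and 45 against total KD.

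GOLIM4 had the smallest p of the contrast with N-long KD, and the smallest p of the list against control. Its exon was included at 89.2%, 87.4% and 82.5% in the controls. In N-short KD it was included at 78.9% and 70.9% at 24 hr, 88.2% at 48 hr and 71.9% at 96 hr. The 48 hr library lay among the controls and the other 3 below them. The mean difference was -9.33 points ± 9.65 (SD, n = 3 sets) and the log2 odds -0.90 (95% interval -1.55 to -0.26, unadjusted p = 0.0083), which did not pass adjustment. N-long KD stood lower than N-short KD by 33.4 points ± 9.09 (SD over sets), in 4 of 4 sets, with an adjusted p of 4.78e-09 in edgeR's quasi-likelihood test. Total KD stood at 23.0% to 33.0%.

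The CLSTN1 exon was included at 19.0%, 33.6% and 29.5% in the controls and at 16.6%, 17.5%, 27.7% and 21.6% in N-short KD. N-short KD was lower in 3 of 3 sets, by 5.10 points on average (SD 3.27), and the log2 odds of -0.56 (95% interval -1.03 to -0.09) did not pass adjustment. N-long KD was at 4.43% to 12.7%, below N-short KD with an adjusted p of 3.62e-05 in edgeR's quasi-likelihood test. The ECT2 exon was included at 93.2%, 87.4% and 88.7% in the controls and 88.7%, 89.4%, 77.7% and 89.9% in N-short KD. Its mean difference was -4.08 points ± 5.45 (SD, n = 3 sets), and the 48 hr library alone lay below every control.

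The exons of ENAH and DIAPH1, both regulators of actin filaments, were not called against control. The ENAH exon had 405 to 532 reads per library, the deepest of these exons. It was included at 76.9%, 83.9% and 72.1% in the controls and 69.2%, 76.5%, 84.5% and 75.6% in N-short KD. The mean difference was 1.28 points ± 1.98 (SD, n = 3 sets) and the log2 odds -0.03 (95% interval -0.31 to 0.25). N-long KD stood lower by 10.7 points (SD 4.81 over 4 sets), with an adjusted p of 7.52e-05 in edgeR's quasi-likelihood test. The DIAPH1 exon was included at 78.3%, 92.1% and 74.7% in the controls and 82.5%, 75.9%, 85.5% and 73.4% in N-short KD. It was lower in N-short KD in 3 of 3 sets, by 3.44 points on average (SD 2.77), with log2 odds of -0.31 (95% interval -0.97 to 0.35).

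The EPB41 exon was included at 72.2%, 65.8% and 83.3% in the controls and 80.3%, 71.0%, 62.7% and 69.1% in N-short KD. The mean difference was -6.19 points ± 6.996 (SD, n = 3 sets), most of it from the 96 hr set (-14.2 points). ARHGAP17 had an exon at 56.7%, 64.1% and 64.6% in the controls and 57.1%, 57.1%, 60.5% and 64.1% in N-short KD, with 31.2% to 37.7% in N-long KD. MSI1, an RNA-binding protein of stem cells, had an exon at 85.2%, 76.4% and 78.7% in the controls and 85.2%, 87.9%, 71.2% and 86.1% in N-short KD. A pair of overlapping FAM126A exons was included at 96.6% to 99.4% in every library of both groups and at 82.5% to 93.5% in N-long KD.

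**Figure D4:**
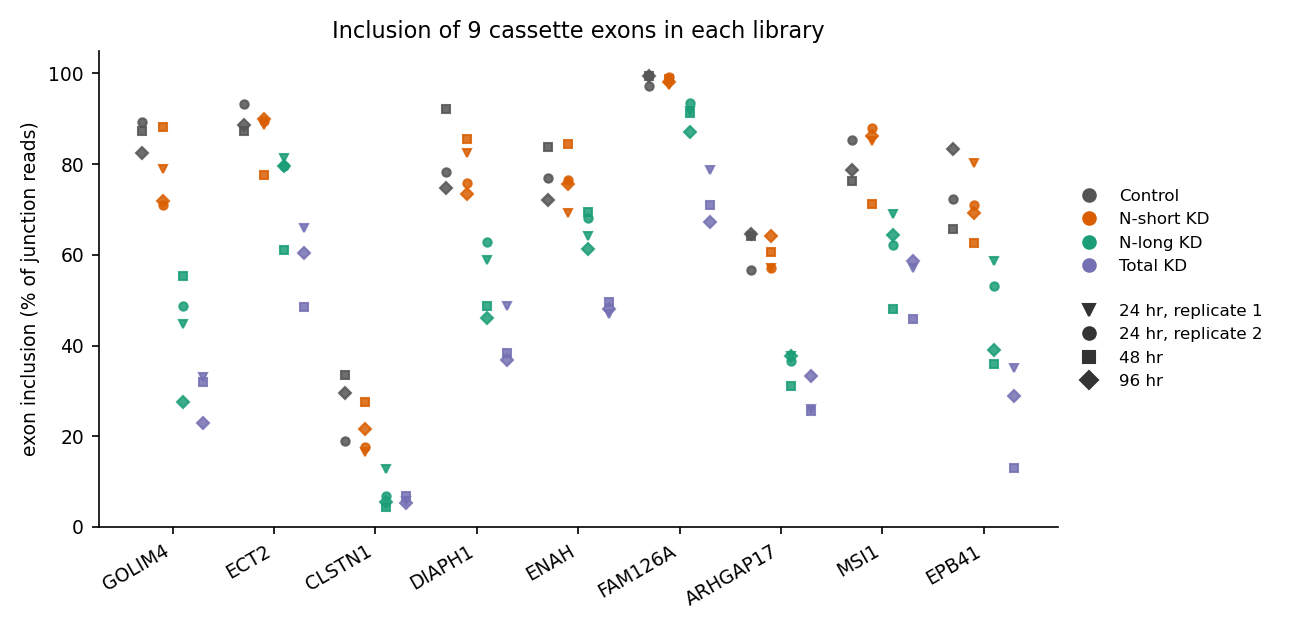
Inclusion (percent of inclusion and skipping junction reads) of 9 cassette exons in each library of control and of N-short, N-long and total KD, with 1 point per library and marker shapes giving the set. They had the smallest p when N-short KD was set against N-long KD, and in each the N-short KD points overlap those of control.

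The remaining exons of the list with an unadjusted p under 0.05 were in DNM2 and PICALM, which act in endocytosis. The 12-base DNM2 exon was at 87.0%, 91.2% and 83.5% in the controls and 89.4%, 92.1%, 88.6% and 97.4% in N-short KD. The PICALM exon ranged from 98.6% to 99.0% among controls and from 96.2% to 98.7% among N-short KD libraries. CTTN, which encodes the actin-binding cortactin, had an exon at 25.1%, 36.0% and 24.3% in the controls and 24.7%, 21.2%, 27.5% and 23.3% in N-short KD (-4.50 points ± 3.75, SD, n = 3 sets). RPS24, a ribosomal protein gene, had a 22-base exon with 4433 to 6950 reads per library, so that counting error was small. It was included at 37.1%, 51.4% and 30.1% in the controls at 24, 48 and 96 hr and 34.8%, 36.5%, 50.6% and 30.7% in N-short KD, which is -0.299 points ± 0.815 (SD, n = 3 sets) against control. In both groups the 48 hr library was the highest and the 96 hr library the lowest.

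Outside the list, the exons with the smallest p and the same direction in 3 of 3 sets included some whose groups did not overlap. They were picked by p and direction in these data, and the share of all exons without overlap was not counted. The lack of overlap is therefore description only. PTBP1, a repressor of neuronal splicing, had a 78-base exon (chromosome 19, 805492 to 805569) at 77.9%, 79.3% and 85.04% in the controls and 79.0%, 74.6%, 73.8% and 77.4% in N-short KD. Its difference was -5.51 points ± 2.13 (SD, n = 3 sets), and its adjusted p of 0.78 in edgeR's quasi-likelihood test was the smallest of the 10. A shorter form of this PTBP1 exon shares its reads in part and differed by -6.79 points ± 4.88 (SD, n = 3 sets). ESRP1, an epithelial splicing regulator, had a 110-base exon at 67.5%, 65.1% and 66.0% in the controls and 52.9%, 52.9%, 56.7% and 54.9% in N-short KD, with no overlap (-11.4 points ± 3.12, SD, n = 3 sets). A neighbouring ESRP1 exon of 151 bases was at 65.8%, 63.0% and 52.9% and at 38.1%, 49.4%, 58.0% and 39.3%.

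CAST, which encodes the calpain inhibitor calpastatin, had an exon at 86.2%, 86.4% and 92.9% in the controls and 93.5%, 94.5%, 94.1% and 100% in N-short KD, with no overlap (7.69 points ± 0.578, SD, n = 3 sets). PMM2, a mannose phosphate enzyme of glycosylation, had one at 95.8%, 98.04% and 94.9% and at 92.0%, 86.0%, 86.2% and 90.2%, with no overlap. AHCTF1, a nuclear pore assembly factor, had one at 98.6%, 95.1% and 97.5% and at 100% in all 4 N-short KD libraries. ISCU, the iron-sulfur cluster scaffold, had one that was higher in N-short KD by 11.8 points ± 7.84 (SD, n = 3 sets). Reads per library of both groups numbered 54 to 101 for CAST, 43 to 87 for PMM2, 61 to 80 for AHCTF1 and 48 to 111 for ISCU. A few skipping reads thus set the AHCTF1 controls apart from 100%. PPDPF and NSFL1C completed the ranking, with 2.98 points ± 2.84 and -7.44 points ± 7.51 (SD, n = 3 sets). Of these 10 exons, that of AHCTF1 was called lower in total KD (92.2%, 95.9% and 97.0% at 24, 48 and 96 hr) than in N-short KD, with an adjusted p of 0.0199 in edgeR's quasi-likelihood test. The exon was picked on the same N-short KD libraries, so this contrast is not independent of the choice. Total KD overlapped the controls (95.1% to 98.6%). For the other 9, no difference between N-short KD and total KD or N-long KD was called, with a smallest adjusted p of 0.654 in edgeR's quasi-likelihood test.

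Single introns gave 13 calls of 120834 tested (0.0108%), 6 higher and 7 lower in N-short KD, with 5546 at an unadjusted p under 0.05. DESeq2 called 1, and 20 were called without the 48 hr control. A junction is given at 0 where the library's deposited list has no row for it, since the lists start at 1 read, so a junction without reads and a junction left out of a list cannot be told apart. Of the 13 introns, 12 had 0 reads in at least 1 of the 14 doxycycline libraries, and 11 combined a library at 0 with another at 20 reads or more. Among all tested introns, 198 had that pattern. In RPS23, a ribosomal protein gene (chromosome 5, 82276135 to 82276450), the intron had 0 reads in all 3 controls and 550, 344, 419 and 378 in the N-short KD libraries. It also had 560 reads in 1 of 3 total KD libraries, 416 in 1 of 4 N-long KD libraries, 0 in the others and 1133 in wild-type HUES66. The remaining introns of RPS23 gave 1004 to 1135 CPM in the controls and 981 to 1147 in N-short KD.

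In PHB2, which encodes prohibitin (chromosome 12, 6965917 to 6966423), the intron had 0 reads in all 3 controls and 619, 0, 0 and 417 in N-short KD. In AP2M1, which encodes a clathrin adaptor subunit (chromosome 3, 184180252 to 184180644), it had 555, 566 and 778 reads in the controls and 0, 0, 591 and 0 in N-short KD. In SEPT7 (chromosome 7, 35801271 to 35831491) it had 0, 0 and 57 reads in the controls and 75, 0, 0 and 0 in N-short KD, and this intron borders the called exon. H3F3A, a histone gene, had 0, 0 and 132 reads and 0 in all 4 N-short KD libraries. DEK, a chromatin protein gene, had 0 in the controls and 7, 6, 17 and 12 reads. RPL8, RPL13, NBPF1, PHC1, BX890604.2 and FAM92A were the other introns with libraries at 0. What set these introns to 0 was not tested.

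Among introns with a read in all 14 libraries, 1 of 120058 was called, in UBB, a polyubiquitin gene (chromosome 17, 16382131 to 16382358). It had 1027, 75 and 78 reads in the controls and 103, 59, 74 and 77 in N-short KD, so that 1 control library stood apart. A count of 992 appeared in 1 total KD library. Among exons with both inclusion junctions read in all 14 libraries, 0 of 4233 were called, with a smallest adjusted p of 0.9998 in edgeR's quasi-likelihood test. Both restrictions were chosen after the data were seen.

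**Figure D5:**
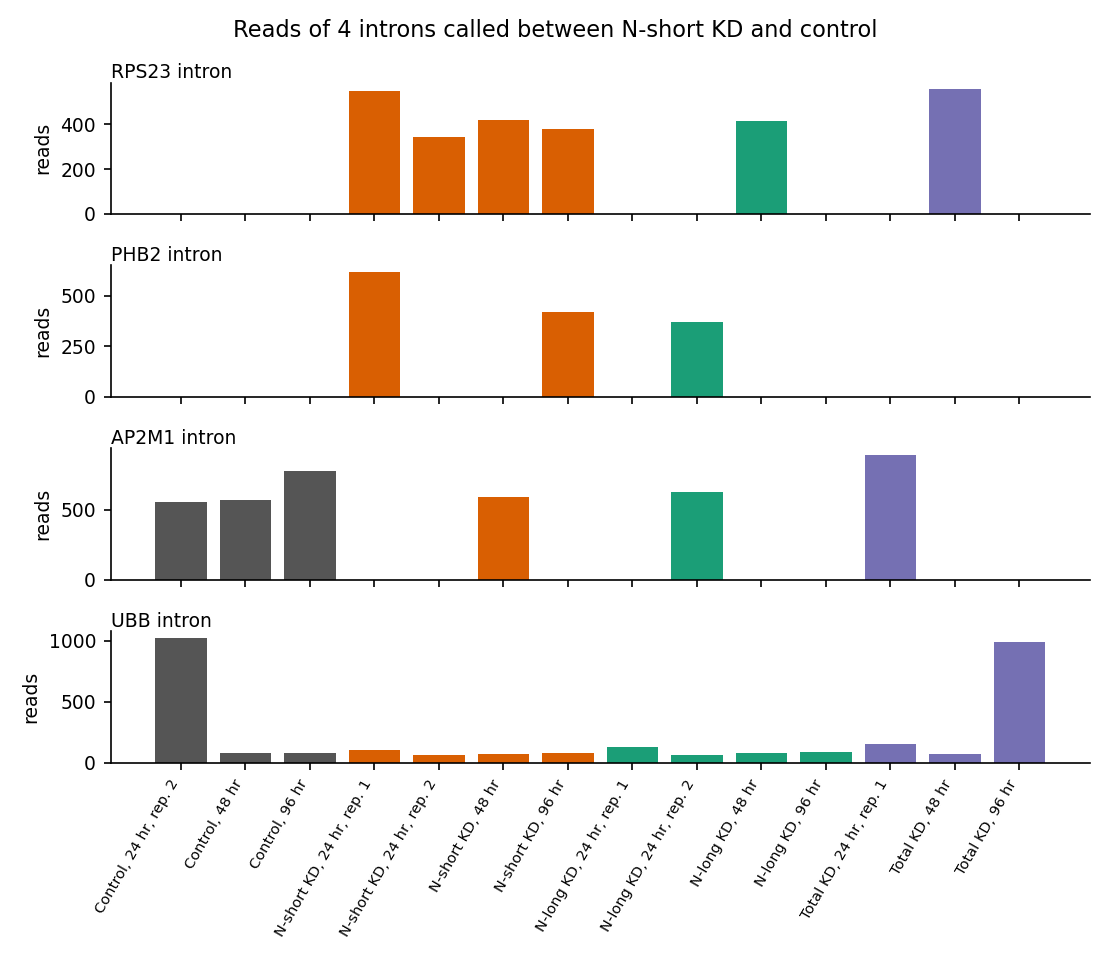
Junction reads (linear axis) of 4 introns called between N-short KD and control, in RPS23, PHB2, AP2M1 and UBB, for each of the 14 doxycycline libraries, coloured by group. In RPS23 the bars are at 0 or between 344 and 560 reads, and both states occur within N-long KD and total KD.

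The authors' own splicing comparisons also gave few events for N-short KD. Events were counted where the adjusted p was under 0.05 and inclusion differed by at least 0.1 in either direction. The authors' deposited tables held 5 of 56294 events at 24 hr (0.00888%), 2 of 45022 at 48 hr (0.00444%) and 1 of 45826 at 96 hr (0.00218%). For N-long KD the authors' deposited tables held 4 of 57221 (0.00699%), 12 of 45148 (0.0266%) and 10 of 47333 (0.0211%). For total KD they held 29 of 56004 (0.0518%), 54 of 45644 (0.118%) and 38 of 45414 (0.0837%) in the authors' deposited tables. Across times, no event of N-short KD (0) was called with the same sign at 2 or more times, against 3 of N-long KD and 26 of total KD, in the authors' deposited tables. The knockdowns share controls in these tables, and differences between the counts were not tested. Library numbers differ between times. At 48 and at 96 hr the series holds 1 library of control and 1 of each knockdown, so p-values there hold no spread between replicates. The median absolute difference for N-short KD was 0.014 at 24 hr, 0.032 at 48 hr and 0.031 at 96 hr in the authors' deposited tables. Counts of different times are therefore not on 1 footing.

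The 8 N-short KD events lay in 8 genes. Inclusion differences in the authors' deposited tables are control minus knockdown on a scale from -1 to 1. At 24 hr the authors' deposited table gave 0.236 for an alternative donor site of AP1S3, -0.216 for mutually exclusive exons of TTC28 and 0.384 for a skipped exon of FCGRT. It gave -0.208 and -0.156 for retained introns of CD27-AS1 and TMEM138. The AP1S3 event was at -0.165 and -0.045 at 48 and 96 hr in the authors' deposited tables, so its sign differed between times. The sign also differed at 48 hr for FCGRT (-0.214) and TMEM138 (0.065) in the authors' deposited table. It did not turn for CD27-AS1 (-0.087 at 48 hr) or TTC28 (0 at 48 hr and -0.106 at 96 hr). At 48 hr the authors' deposited table gave -0.659 for a skipped exon of ZNF160 (0.005 at 96 hr) and -0.191 for one of GRAMD1A (0.035 at 24 hr). At 96 hr it gave 0.278 for mutually exclusive exons of HNRNPH1, a splicing regulator, beside 0.003 and 0.012 at 24 and 48 hr in the authors' deposited tables. The HNRNPH1 event was also called in total KD at 96 hr (0.262), and that of GRAMD1A in N-long KD at 48 hr (-0.191), in the authors' deposited tables. These knockdowns share controls with N-short KD. In N-long KD the HNRNPH1 event was at 0.025 at 96 hr, not called. At 48 hr it was called there at -0.359 in the authors' deposited table, the opposite sign. Each event was thus called at 1 time of N-short KD.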

How the data were processed

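Spliced reads were analysed in 14 doxycycline-treated HUES66 libraries, of which 4 N-short KD and 3 control libraries carry the comparison. The deposited junction files hold raw counts of reads per splice junction, made by the authors with STAR 2.7.1, SAMtools 1.9 and hg38, per the submitters' processing notes, which give no roles. The authors' rMATS tables hold inclusion differences and p-values, per the file headers, with the difference in a unit other than counts (control minus knockdown, -1 to 1). Their 69 columns of values per library were not used.

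Reads on annotated junctions (GENCODE 29) of 1 gene name were summed per gene. Exons needed 2 inclusion junctions and 1 skipping junction, a length up to 1000 nt, a mean of 20 reads and between 2% and 98% inclusion over all libraries (6537 of 37942 exons). Inclusion reads were the rounded mean of both inclusion junctions. Genes, junctions and exons were fitted by the quasi-likelihood test of edgeR 4.0.16 (R 4.3.3, TMM scaling, filterByExpr) over the 14 libraries, with terms for library set and knockdown. Each contrast had its own Benjamini-Hochberg adjustment, and 0.05 was the threshold. The fits were tested on simulated data. DESeq2 1.42.0 and limma 3.58.1 were alternatives, beside other filters, scalings, blocks and leaving out each library. The library set was taken to pair the groups. Deviations from group means correlated at 0.410 to 0.774 in the 3 pairs of the same set. In 9 other pairs they correlated at -0.710 to 0.575 (median -0.208), so the ranges overlapped. Deviations within a group sum to 0, which by itself pulls the other pairs below 0. Depth was 9622841 to 13891603 junction reads per library.

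Members and gene lists were chosen with earlier results of these data known. The rule named the genes, junctions and exons that were called (for junctions, the 10 with the largest absolute log2 fold change). It added the 10 genes and 10 exons with the smallest p that moved the same way in 3 sets. It also took exons of the listed RBFOX-responsive genes at an unadjusted p under 0.05, RBFOX2 first-exon junctions and the most abundant list members. The last were the 10 exons with the smallest p between the isoform knockdowns, and authors' events called with the same sign at 2 or more times. NANOG, PRDM14, VCL, MBNL2, the CTTN and RPS24 exons, the UBB, AP2M1 and BX890604.2 introns and the named events of the authors' tables fall outside that rule and were chosen after their values were seen.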

Additional observations from a re-analysis of the deposited data

Results flagged for a closer look

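In the 4 N-short KD libraries, 52 values were checked for 1 library far from the other 3 (its gap to them, as a share of the whole range, above Dixon's 95% critical value), and 12 stood out. Chance flags about 1 in 20 groups of normally spread values. That rate does not hold for introns and exons picked by their p, so the 12 cannot be read against it. Where 3 libraries are at 0, the gap is the whole range whatever the other count, so the flag is fixed in advance. Among exons, the 48 hr library was low for ECT2 (77.67% inclusion, the others 88.66% to 89.89%) and MSI1 (71.25%, the others 85.19% to 87.88%). The 96 hr library was low for PPDPF (94.65%, the others 96.53% to 96.9%) and high for CAST (100%, the others 93.55% to 94.55%). The 24 hr replicate 1 library was high for NSFL1C (16.22%, the others 8% to 8.824%). Among called introns, 1 library held the reads in RPL8 (169), SEPT7 (75), NBPF1 (1), PHC1 (2), AP2M1 (591) and FAM92A (57), with 0 in the other 3. In BX890604.2 it held 12, beside 0, 0 and 1. What set these libraries apart was not tested.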

How the results depend on the processing

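Genes past the threshold numbered 1, against 2 with the 7 libraries alone, 0 without the replicate block (with or without time), 0 by DESeq2, 4 without a count filter and 0 to 2 leaving out a library. Junctions numbered 13, against 4 with the 7 libraries, 2 and 0 without the block with and without time, 8 with wild-type HUES66 as a control, 1 by DESeq2, 28 without a filter, 9 to 20 leaving out a library and 1 where all 14 libraries had a read. Exons numbered 1, against 0 without the block (both fits), with wild-type HUES66, by limma, at 50 reads or with both inclusion junctions in all 14 libraries, 6 at 10 reads, 3 with the smaller inclusion junction and 0 to 4 leaving out a library. The 28 exons between the isoform knockdowns became 15 and 0 without the block, 0 by limma and 12 to 28 leaving out a library. The 92 against total KD became 17 without block and time, 11 by limma and 45 to 94 leaving out a library. The N-short intron stayed below 0 in all settings run (-1.29, leave-one-out -1.861 to -0.9631) and passed at -1.358 with wild-type HUES66 and -1.297 without a filter. The N-long intron stayed above 0 (0.1543 to 0.5008). RBFOX2 ranged from -0.1098 to 0.002466 leaving out a library, with 0.001332 without the 24 hr control. The SEPT7 exon reversed to 0.81 and 1.994 without the block, 1.999 by limma and 6.502 without the 96 hr control (leave-one-out -6.297 to 6.502). Log2 odds of exons reversed for DIAPH1 (0.09119) and ARHGAP17 (0.0349) without the 48 hr control, ARHGAP17 with the smaller junction (0.07449), MSI1 without the 96 hr control (-0.1065), and ENAH with the 7 libraries (0.1121) or without the 48 hr control (0.1286) or 24 hr replicate 1 of N-short KD (0.1247). FAM126A reversed with wild-type HUES66 (0.06775 and 0.007495 for the overlapping exons), without the 96 hr control (0.1951 and 0.06792) and without 24 hr replicate 1 of N-short KD (0.01565). Their leave-one-out ranges were -0.6068 to 0.09119 for DIAPH1, -0.1753 to 0.1286 for ENAH, -1.551 to 0.1951 and -1.595 to 0.06792 for FAM126A, -0.2388 to 0.0349 for ARHGAP17 and -0.1065 to 0.3861 for MSI1. In the authors' deposited tables, N-short KD events at an adjusted p under 0.01 numbered 0 at 24 hr and 1 at 48 hr, and 1 at 48 hr at a difference of at least 0.2. Apart from settings that drop libraries or features, the cause was not tested. The motif window was not run. With 5 to 28 reads per library, the N-short intron allows only wide intervals.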
